A study of Mus musculus with 2 samples.

Results

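The genes described here encode matrix glycoproteins, proteoglycans and microfibril proteins of mesenchymal stem/progenitor cells (MSPC), bone marrow stromal cells with the capacity to give rise to bone, cartilage and fat. They are 40 genes taken by name from a count table of 35275 Ensembl identifiers, and all 40 matched 1 identifier each through the supplied table of gene symbols. Polyadenylated RNA was sequenced from C57BL/6 mice that all carried the Nestin-Cre transgene, a recombinase driven by the nestin promoter. The control library came from Ptpn11+/+ MSPC and the mutant library from Ptpn11E76K/+ MSPC, in which 1 allele of Ptpn11 carries the activating change E76K. Its product, the phosphatase SHP2, promotes RAS-ERK signalling. Per the labels' protocols, the sort kept marrow cells with CD140 and Sca-1 on their surface and without CD45, Ter-119 or CD31. The labels list 1 library per genotype, although 2 replicates are mentioned in the series' design. The sources used here do not give age, time point or pooling of animals.

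Matrix glycoproteins and proteoglycans are secreted proteins that sit between and upon collagen fibrils. Fibronectin and the thrombospondins bind cells, collagen and growth factors. Small leucine-rich proteoglycans bind collagen and set fibril width, fibrillin microfibrils form the scaffold of elastic fibres, and the latent TGF-beta binding proteins tether inactive TGF-beta to that scaffold. Stromal cells of the marrow are a main source of these proteins in that tissue.

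There is no replicate, so no test between genotypes was run, no p-value is given, and each difference is one between 2 libraries. Counts are given as deposited, first for the control and then for the mutant, and levels are given as CPM (counts scaled to library size) after TMM scaling, or in CPM per kilobase where genes are compared with each other. Depth was 22328659 counts for the control and 18010963 for the mutant library. Each fold is the ratio of the scaled libraries, with its 95% exact Clopper-Pearson interval in brackets. Intervals and floors cover counting error only. Measured genes are those with 20 or more counts over both libraries, and among them a gene is termed called where the entire interval is past 2-fold in either direction. Ptpn11 had 5958 and 5039 counts, a ratio of 1.13 (1.08 to 1.17). Since counts per gene do not separate the alleles, the genotype is not checked by it. The sort genes gave 1 and 12 counts of Ptprc (CD45) and 5 and 2 of Pecam1 (CD31), while Pdgfra and Pdgfrb (CD140) each had over 1000 counts in both libraries. Ly6a (Sca-1) was 2.67-fold lower in the mutant library (2.44 to 2.93).

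Matrix genes took a smaller part of the mutant library. The 40 genes together made up 6.53% of the control library (95% exact binomial interval 6.52 to 6.54), while their share of the mutant library was 3.2% (3.19 to 3.2). Of the 40, 35 were measured, and 15 of these were called lower and 4 higher in the mutant library, with 16 not called. Across the 13142 measured genes of the table, 8.29% were called lower, 6.98% higher and 15.3% either way. The median log2 ratio of the 35 was -0.77, against 0.01 over all measured genes, and 25 of the 35 had a ratio below 1. Beyond 4-fold, 7 of the 35 lay lower and 2 higher, where 2.02% and 1.7% of all measured genes did. Of all calls in the table, 45.7% were higher, against 35.6% with totals computed without the 50 most abundant genes, where the matrix genes again had 15 calls lower and 4 higher. In bulk RNA, fewer cells of a type and less RNA per cell cannot be told apart.

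**Figure D1:**
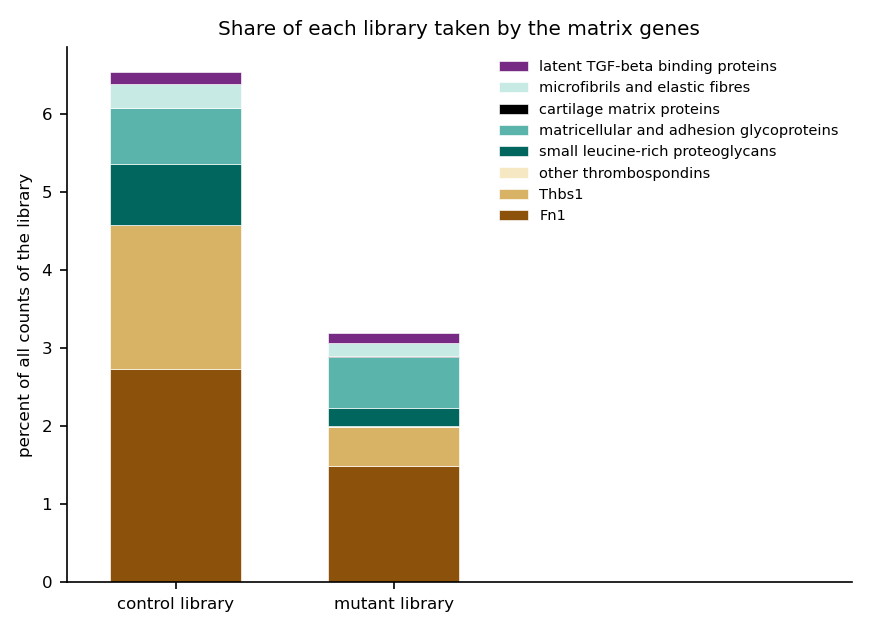
Stacked bars give the percent of all counts of each library (vertical axis, from 0) held by Fn1, by Thbs1 and by the other matrix genes in role groups, with 1 library per genotype. The bar stands at 6.53% for the control and at 3.2% for the mutant, and most of the difference in height lies in Fn1 and Thbs1; the cartilage proteins and the other thrombospondins are too few to see.

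Of the 5 genes that were not measured, none had more than 10 counts in total. Lum, which encodes the collagen-binding proteoglycan lumican, had 4 and 0 counts. Eln, the gene of elastin, had 5 and 5. Acan, the gene of the cartilage proteoglycan aggrecan, had 1 and 1, Mfap4 had 1 and 0, and Thbs4 had none at all, so that its level could be at most 0.13 CPM (control) or 0.173 CPM (mutant). These cells thus yielded almost no reads of elastin, lumican or aggrecan in either genotype.

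**Figure D2:**
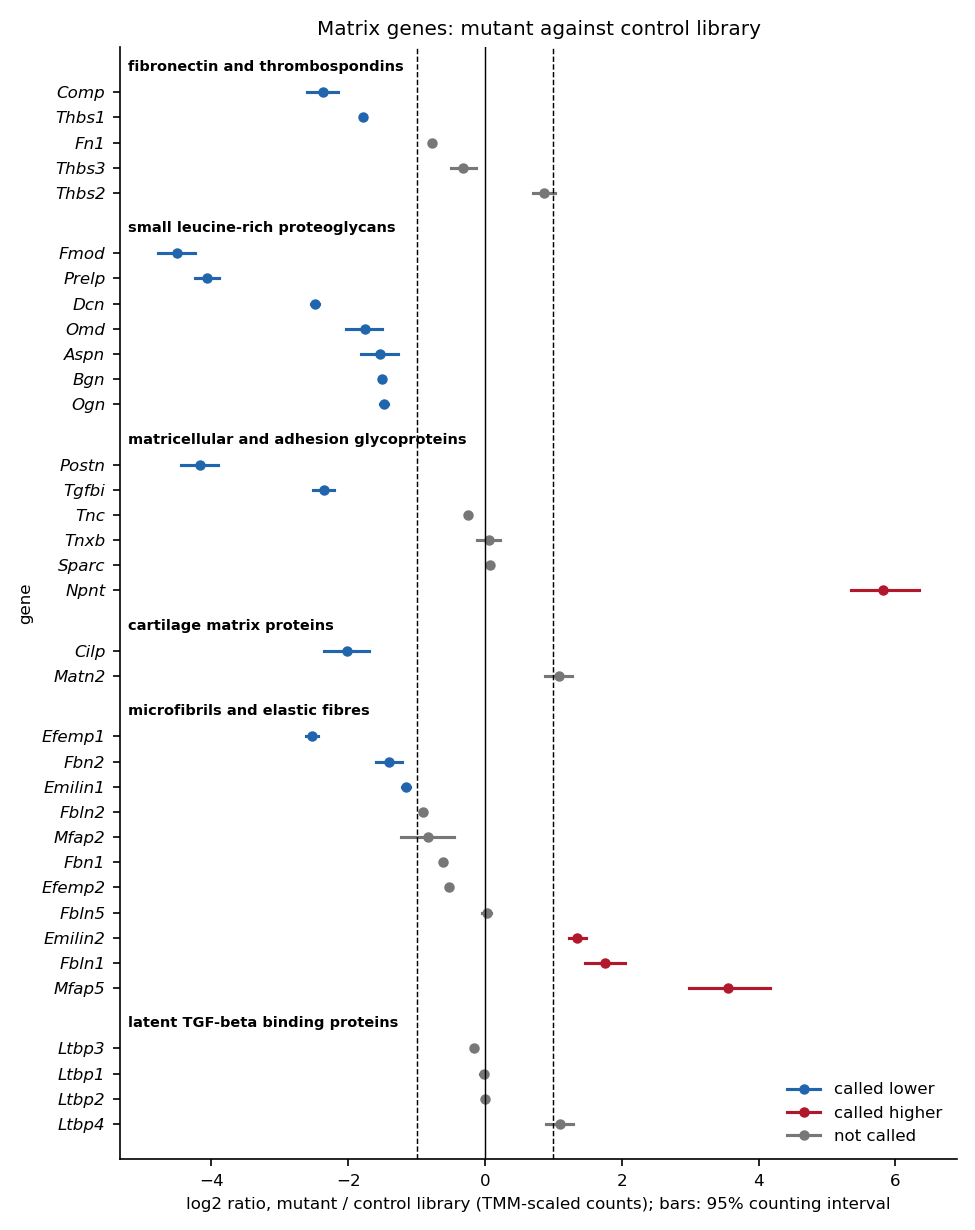
Each point is the log2 ratio of the mutant to the control library (horizontal axis) for 1 of the 35 measured matrix genes, grouped by role, with its 95% counting interval as a bar; dashed lines mark 2-fold. All 7 measured small leucine-rich proteoglycans lie left of the lower line, while Npnt, Mfap5, Fbln1 and Emilin2 lie right of the upper one and Ltbp1, Ltbp2 and Ltbp3 lie near 0.

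Fibronectin and thrombospondins made up 70.2% of the control's matrix counts and 62.7% of the mutant's. Fn1 encodes fibronectin, which assembles into fibrils on the cell surface and binds integrins. It had 611955 and 269794 counts, 26459 and 15516 CPM, and was first among all genes by count in both libraries. The mutant library held 1.71-fold less of it (1.70 to 1.71), which is short of the 2-fold threshold. Thbs1 encodes thrombospondin-1, a trimeric matricellular protein that can activate latent TGF-beta. With 409223 and 89670 counts it stood second by count in the control and eighth in the mutant library, and was called 3.43-fold lower (3.41 to 3.46). Its share of the matrix counts went from 28.1% to 15.6%, and its share of all counts from 1.83% to 0.498%, while the share of Fn1 went from 2.74% to 1.5%.

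The other thrombospondins were far less abundant and did not share one direction. Thbs2, a close relative of Thbs1 that lacks its TGF-beta activating sequence, had 521 and 712 counts and was 1.82-fold higher (1.62 to 2.04), which was not called. Thbs3, which forms pentamers as Comp does, had 654 and 395 counts, 1.24-fold lower (1.10 to 1.41) and not called. Thbs3 shares 318 exon bases with the opposite-strand gene Mtx1 (709 and 798 counts) in GENCODE M21, and the sources used here do not say whether counting used strand, so reads of the pair cannot be told apart. In all, 15 of the 40 genes share exon bases with a gene on the opposite strand, among them Efemp2 with Mus81 (173 bases, 350 and 386 counts of Mus81). Comp encodes the cartilage oligomeric matrix protein, a thrombospondin of cartilage and tendon that binds collagen. It had 1264 and 184 counts and was called 5.16-fold lower (4.42 to 6.06). In levels per length, Thbs1 stood at 3025.5 and 882 CPM per kilobase, while Thbs2, Thbs3 and Comp stayed between 3.82 and 22.6 in both libraries.

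The small leucine-rich proteoglycan genes among the 40 were lower in the mutant library without exception among those measured. All 7 measured genes of 8 were called lower, where 8.29% of all measured genes of the table were. Their median log2 ratio was -1.76, with a range from -4.5 to -1.47. Their summed share was 0.77% of control counts and 0.228% of mutant counts. These proteins share a core of leucine-rich repeats, bind collagen fibrils and growth factors, and fall into classes that include decorin, biglycan and asporin in one and fibromodulin, lumican, PRELP and osteomodulin in another. Genes of both classes were called lower. After removal of trends with transcript length and GC content, Aspn was not called (2.31-fold lower, 1.91 to 2.80), which left 6.

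Fmod and Prelp differed most. Fmod encodes fibromodulin, which binds collagen and is abundant in tendon and cartilage. Its 3657 control and 121 mutant counts came to 158 and 6.96 CPM, a level 22.7-fold lower (19.0 to 27.5). Only 70 of the 13142 measured genes had a lower log2 ratio. Prelp encodes a proteoglycan that links collagen to the heparan sulphate of basement membranes. Its counts were 6491 and 292, or 281 and 16.8 CPM, which was 16.7-fold lower (14.9 to 18.9). Prelp shares 350 exon bases with the opposite-strand gene model Gm15851, which had 2 and 1 counts.

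Dcn, the gene of decorin, a proteoglycan that coats collagen fibrils and binds TGF-beta, had 18370 and 2472 counts, which is 5.59-fold lower (5.36 to 5.83). Bgn encodes biglycan, its closest relative, and was the most abundant of the family with 130385 and 34693 counts, 2.83-fold lower (2.79 to 2.86). Per length, Bgn stood at 2115 and 748 CPM per kilobase, 10th and 77th among all measured genes. Dcn stood at 169 and 30.3. The order of these close relatives was thus the same in both libraries, with Bgn far above Dcn.

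The remaining 3 genes had folds close to each other. Ogn, which encodes osteoglycin (mimecan), had 11902 and 3228 counts, which is 2.77-fold lower (2.67 to 2.88). Omd encodes osteomodulin, a keratan sulphate proteoglycan of bone, and had 676 and 150 counts, 3.39-fold lower (2.83 to 4.07). Aspn encodes asporin, which lacks the usual attachment site for a glycosaminoglycan chain. It had 545 and 141 counts, 2.91-fold lower (2.41 to 3.52). The intervals of Aspn overlap those of Omd and of Ogn, so counting error alone does not order Aspn against either of them.

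**Figure D3:**
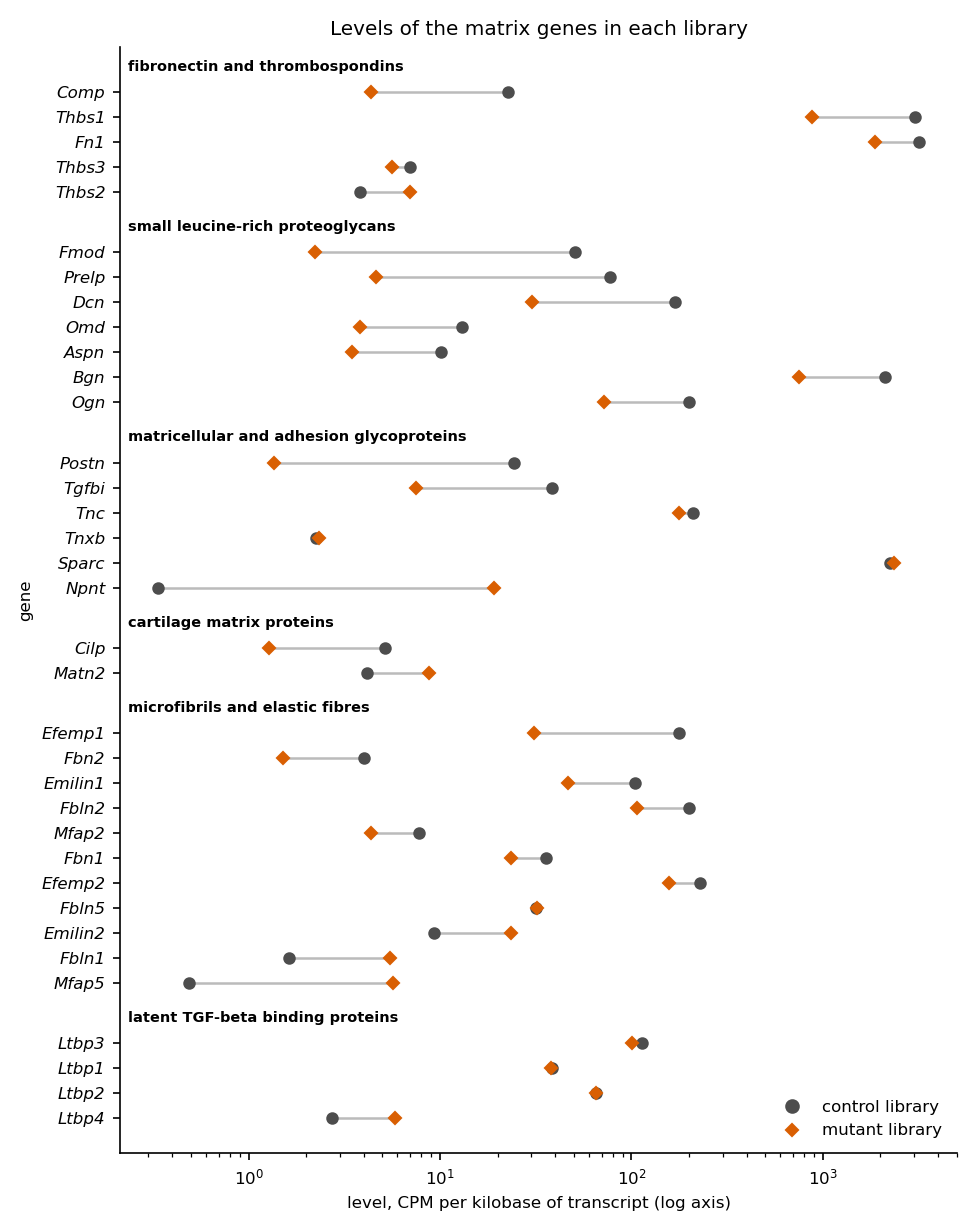
Levels of the 35 measured matrix genes in CPM per kilobase of transcript (horizontal log axis) are shown for the control library (circles) and the mutant library (diamonds), joined by a line per gene. Fn1, Thbs1, Sparc and Bgn lie highest in the control, and Fmod, Prelp, Postn and Npnt have the longest lines.

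Most genes of the family lie in clusters, and Bgn, on chromosome X, lies in none of the 3 described here. Gene order and promoter windows were taken from RefSeq on GRCm38.p6, which is not the mm9 build that the submitters' processing notes name. Aspn, Omd and Ogn lie side by side on chromosome 13 with Ecm2, a related leucine-rich gene. Prelp and Fmod lie side by side on chromosome 1 with Optc. Dcn lies beside Lum, Kera and Epyc on chromosome 10. Of the 11 genes in these clusters 7 were measured, 6 were called lower and 0 higher (median log2 ratio -1.76). These 6 are among the proteoglycan calls given above, and 8.29% of all measured genes were called lower. Ecm2, with 104 and 47 counts, was 1.66-fold lower (1.17 to 2.40) and not called. Epyc and Kera had 0 counts in both libraries and Optc had 3 and 2, so only Dcn was measured in its cluster.

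Measured genes that flank the clusters were mostly not called. The 18 flanking protein-coding genes were taken as 3 per side after the values inside the clusters had been seen. Of these, 12 were measured, and 1 was called lower and 0 higher (median log2 ratio 0.24). Among all measured genes, 8.29% were called lower and 6.98% higher. The 5 measured genes around the chromosome 13 cluster had ratios from 1.18 (Cenpp, 229 and 203 counts) to 1.89 (Nol8, 532 and 755 counts). Cenpp shares 7 exon bases with Aspn on the opposite strand. On chromosome 1, Atp2b4, a plasma membrane calcium pump gene that precedes Optc, had 844 and 147 counts and was called 4.32-fold lower (3.62 to 5.18). On the other side of that cluster Btg2, an antiproliferative gene, had 609 and 371 counts and was not called (1.23-fold lower, 1.08 to 1.41).

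**Figure D4:**
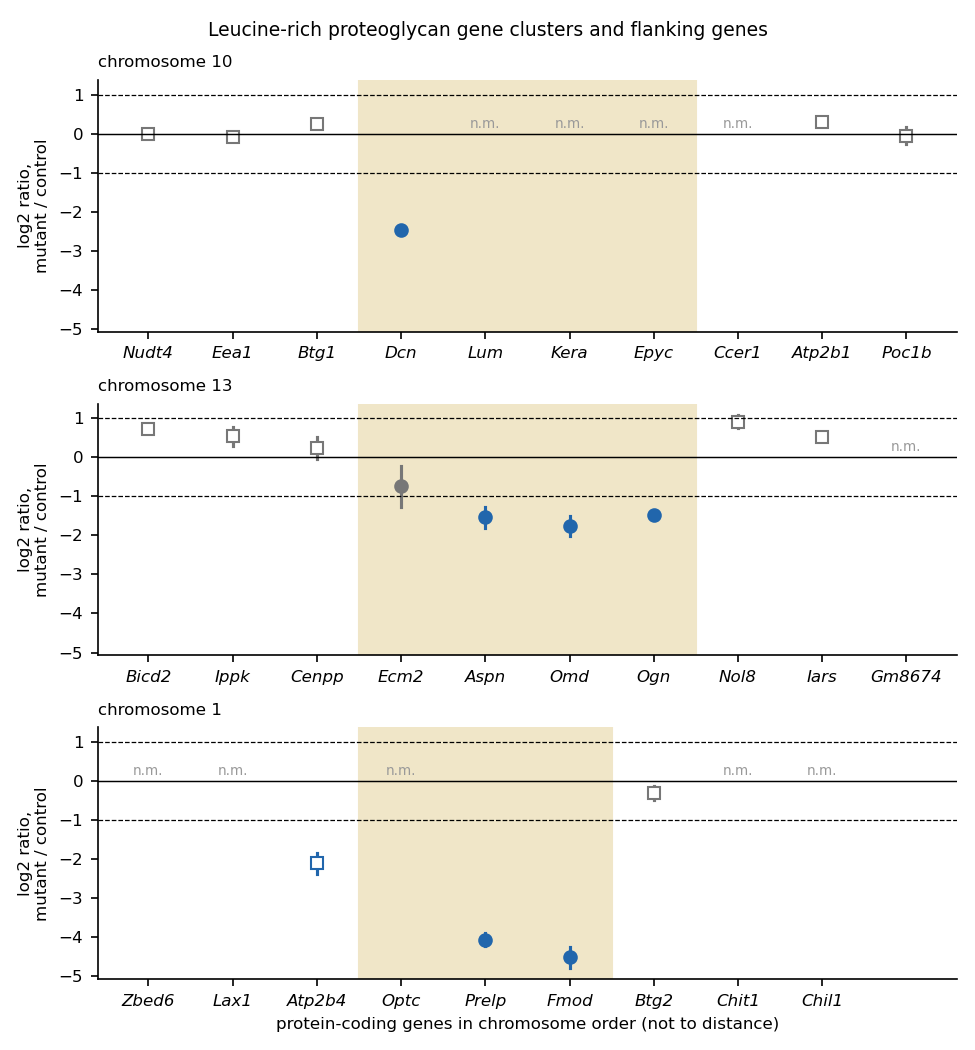
Log2 ratios of mutant to control library (vertical axes, bars are 95% counting intervals) are drawn for genes in chromosome order in and around the 3 clusters (shaded, filled circles) and for 3 flanking genes per side (open squares); n.m. marks genes with under 20 counts. Blue marks genes called lower and grey those not called: 6 of 7 measured cluster genes are blue, and among the flanking genes Atp2b4 alone is.

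The promoter windows of the neighbouring genes are shown because all 5 of these genes were called lower, and that of Npnt because it had the highest ratio of all the matrix genes. Sequences are from RefSeq on GRCm38.p6, 250 bases before to 50 after the gene start, 5′ to 3′ on the strand of the gene. Capitals mark matches of TGANTCA (the AP-1 motif), CANNTG (the E-box motif) or TATAAA (the TATA motif) on either strand. A match is one of letters at any position of the window, and whether any is a working site was not tested. For Npnt the table lists 2 windows and the first is shown.
Prelp, chr1:133921352-133921651, minus strand: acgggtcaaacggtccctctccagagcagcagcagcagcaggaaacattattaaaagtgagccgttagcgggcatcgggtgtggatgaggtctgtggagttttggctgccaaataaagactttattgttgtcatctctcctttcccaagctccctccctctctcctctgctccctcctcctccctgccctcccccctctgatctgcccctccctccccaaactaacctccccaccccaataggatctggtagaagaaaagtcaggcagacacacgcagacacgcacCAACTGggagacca
Fmod, chr1:134037004-134037303, plus strand: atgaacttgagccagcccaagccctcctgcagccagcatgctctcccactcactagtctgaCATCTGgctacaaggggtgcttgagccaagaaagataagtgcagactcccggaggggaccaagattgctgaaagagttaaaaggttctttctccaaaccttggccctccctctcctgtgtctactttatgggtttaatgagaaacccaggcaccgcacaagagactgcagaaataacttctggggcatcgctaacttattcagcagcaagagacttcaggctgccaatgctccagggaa
Aspn, chr13:49544193-49544492, plus strand: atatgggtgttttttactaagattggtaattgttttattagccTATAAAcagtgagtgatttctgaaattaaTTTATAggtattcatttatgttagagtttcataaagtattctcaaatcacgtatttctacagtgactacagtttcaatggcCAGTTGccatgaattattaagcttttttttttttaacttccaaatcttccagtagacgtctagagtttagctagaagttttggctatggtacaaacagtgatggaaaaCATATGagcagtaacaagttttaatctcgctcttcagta
Omd, chr13:49582212-49582511, plus strand: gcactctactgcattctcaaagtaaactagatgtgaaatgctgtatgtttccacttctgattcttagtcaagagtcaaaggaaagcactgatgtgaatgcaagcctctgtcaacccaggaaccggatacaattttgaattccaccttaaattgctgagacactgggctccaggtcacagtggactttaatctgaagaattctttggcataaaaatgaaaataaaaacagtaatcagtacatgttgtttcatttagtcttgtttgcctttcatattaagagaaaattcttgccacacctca
Ogn, chr13:49607765-49608064, plus strand: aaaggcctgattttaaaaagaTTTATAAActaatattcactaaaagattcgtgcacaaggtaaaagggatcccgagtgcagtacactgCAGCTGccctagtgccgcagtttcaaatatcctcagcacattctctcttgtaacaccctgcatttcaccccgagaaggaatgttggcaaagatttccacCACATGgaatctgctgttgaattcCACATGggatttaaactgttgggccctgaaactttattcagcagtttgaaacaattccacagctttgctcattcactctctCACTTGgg
Npnt, chr3:132950242-132950541, minus strand: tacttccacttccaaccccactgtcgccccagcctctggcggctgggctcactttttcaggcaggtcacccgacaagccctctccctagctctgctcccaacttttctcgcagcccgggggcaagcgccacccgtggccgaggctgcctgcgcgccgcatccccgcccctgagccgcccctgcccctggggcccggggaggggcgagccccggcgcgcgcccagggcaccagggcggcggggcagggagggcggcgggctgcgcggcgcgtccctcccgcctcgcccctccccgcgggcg

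A promoter window was listed for 30 of the 40 genes. TGANTCA was found in windows of 3 of these, of which Efemp1 was called lower and Tnxb and Ltbp3 were not called, and 8.97% of all 27025 genes with a window had a match. Both shares count a gene once if any of its windows matches, and of all 32851 single windows 7.81% had a match. CANNTG was in windows of 26 of the 30, among them 8 of 11 genes called lower and 3 of 3 called higher, against 75% of all genes (72.3% of single windows). TATAAA was in windows of 5 of the 30, near the share of 15.7% of all genes (13.6% of single windows). It was in 3 of 11 genes called lower, 0 of 3 called higher and 2 of 14 not called. The TATAAA matches of Aspn began at -207 and -178 from the gene start and those of Ogn at -229 and -227. That of Postn began at -26. In the windows shown, Ogn had 4 matches of CANNTG, Aspn had 2, Fmod and Prelp 1 each, and Omd and Npnt none of the 3 motifs. The CANNTG matches of Npnt lie in its other window, which is not shown. The first listed windows of Omd and Aspn were poor in GC, at 37.7% and 31%, and those of Fmod and Prelp were at 51% and 55.3%. That of Npnt was at 76.7% GC with 32 CG dinucleotides, where the median over 27025 genes was 52.7% GC and 7 CG dinucleotides. The 6 small leucine-rich proteoglycan genes with a window had a median of 46.7% GC and 3.5 CG dinucleotides. By call, the median GC was 54.3% over 11 genes called lower, 51.7% over 3 called higher and 59.7% over 14 not called. Their median CG dinucleotides were 4, 12 and 12.

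Matricellular and adhesion glycoproteins were split. Of 6 measured genes, 2 were called lower, 1 higher and 3 were not called (median log2 ratio -0.1). Among all measured genes, 8.29% were called lower and 6.98% higher. Postn and Tgfbi encode the related fasciclin-domain proteins periostin and TGFBI, which bind integrins and are induced by TGF-beta. Postn had 2944 and 123 counts, 127 and 7.07 CPM, and was 18.0-fold lower (15.0 to 21.7). Tgfbi had 2682 and 393 counts, 5.13-fold lower (4.61 to 5.72). Both fasciclin-domain genes were thus called in one direction.

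Npnt was the member farthest in the other direction. It encodes nephronectin, a basement membrane ligand of integrin α8β1. Its 36 control and 1536 mutant counts came to 1.56 and 88.3 CPM, a level 56.8-fold higher (40.8 to 81.3), with 26 measured genes of the whole table above it by log2 ratio. Itga8, the gene of the α8 chain of that receptor, had 6 and 5 counts.

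Sparc, Tnc and Tnxb were not called. Sparc encodes osteonectin, a collagen-binding protein and one of the most abundant products of bone-forming stroma. With 119676 and 94699 counts it had a ratio of 1.05 (1.04 to 1.06), and its share of the matrix counts went from 8.2% to 16.5%, which places it above Thbs1 in the mutant library by count. Tnc, the gene of tenascin-C, an adhesion-modulating glycoprotein, had 34704 and 21970 counts, 1.19-fold lower (1.17 to 1.21). Tnxb, the gene of tenascin-X, which supports collagen organisation, had 633 and 494 counts and a ratio of 1.04 (0.921 to 1.17). The log2 ratios of Sparc and Tnxb were 0.07 and 0.05, and they turned to -0.03 and -0.05 with total-count scaling, so neither has a firm direction.

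Of the cartilage matrix proteins, Cilp was called lower and Matn2 was not called. Cilp encodes a cartilage intermediate layer protein that binds TGF-beta, and had 494 and 92 counts, 4.04-fold lower (3.23 to 5.10). Matn2 encodes matrilin-2, an adaptor of filament networks found in many connective tissues, and had 343 and 544 counts, a ratio of 2.11 (1.84 to 2.42) whose interval reaches below 2-fold. Of 9 chondrocyte markers 5 were measured, 3 called lower and 1 higher, beside 8.29% and 6.98% of all measured genes. Their summed level went from 1569 to 1136 CPM, mostly from Col2a1 (1446 and 1083 CPM), which was not called. Col9a1 and Snorc were at 0 in both libraries. The part of these markers in the values of Comp, Cilp and Fmod was not tested.

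Genes of microfibrils and elastic fibres went both ways, with 3 of 11 measured called lower, 3 higher and 5 not called (median log2 ratio -0.61). Among all measured genes, 8.29% were called lower and 6.98% higher. Fibrillins form the microfibril backbone. Fbn1 had 9973 and 4901 counts, 1.53-fold lower (1.48 to 1.58), not called. Fbn2, the fibrillin more typical of developing tissue, had 1021 and 290 counts and was called 2.65-fold lower (2.32 to 3.03), a call that was lost once the trends over length and GC were removed (2.08-fold, 1.82 to 2.37). Fbn2 shares 129 exon bases with the opposite-strand gene model Gm26507, which had 16 and 0 counts.

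The microfibril-associated glycoproteins and the EMILINs each held a pair with opposite ratios. Mfap2 and Mfap5 encode the related small proteins MAGP-1 and MAGP-2, which bind fibrillin. Mfap2 had 192 and 81 counts, 1.78-fold lower (1.37 to 2.34), and was not called. Mfap5 had 28 and 246 counts and was called 11.7-fold higher (7.89 to 18.0). Per length, Mfap2 stood at 7.74 and 4.34 CPM per kilobase and Mfap5 at 0.486 and 5.68, so that the order of the pair differed between the libraries. Emilin1 encodes an elastic-fibre glycoprotein that restrains TGF-beta processing. It had 9266 and 3143 counts, 2.22-fold lower (2.13 to 2.31). Emilin2, its relative, had 844 and 1616 counts and was called 2.55-fold higher (2.34 to 2.77). Per length, Emilin1 stayed above Emilin2, at 104 and 46.9 against 9.26 and 23.6 CPM per kilobase.

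Fibulins are secreted proteins with calcium-binding EGF repeats, and several of them link elastin to microfibrils. Efemp1, the gene of fibulin-3, had 8400 and 1094 counts and was called 5.77-fold lower (5.42 to 6.15). Fbln1, the gene of fibulin-1, had 137 and 347 counts and was called 3.37-fold higher (2.76 to 4.14). The others were not called. Fbln2 had 22075 and 8868 counts, 1.87-fold lower (1.83 to 1.92), and Efemp2, the gene of fibulin-4, had 13863 and 7245, 1.44-fold lower (1.40 to 1.48). Fbln5, whose protein is needed for elastic fibre assembly in mice, had 4280 and 3275 counts and a ratio of 1.02 (0.972 to 1.07). Its log2 ratio of 0.03 turned to -0.08 with total-count scaling. Per length, Efemp1 was level with Fbln2 in the control, at 178 and 199 CPM per kilobase, and stood well below it in the mutant library, at 30.9 and 107.

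Of the latent TGF-beta binding proteins, 0 of 4 were called, beside 15.3% of all measured genes. Ltbp1 had 5938 and 4404 counts and a ratio of 0.987 (0.949 to 1.03), and Ltbp2, which binds fibrillin but not TGF-beta, had 10294 and 7729, a ratio of 0.999 (0.97 to 1.03). Ltbp3 had 15033 and 10072 counts, 1.12-fold lower (1.09 to 1.15). Ltbp4 had 339 and 544 counts and a ratio of 2.13 (1.86 to 2.45), whose interval reaches below 2-fold. The median log2 ratio of the group was -0.01, and 0.13 with the length and GC trends removed, so it has no firm direction. Of the TGF-beta ligands that these proteins hold, Tgfb1 had 468 and 1489 counts and was called 4.23-fold higher (3.81 to 4.71), while Tgfb2 (1610 and 903 counts) and Tgfb3 (835 and 607) were not called.

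**Figure D5:**
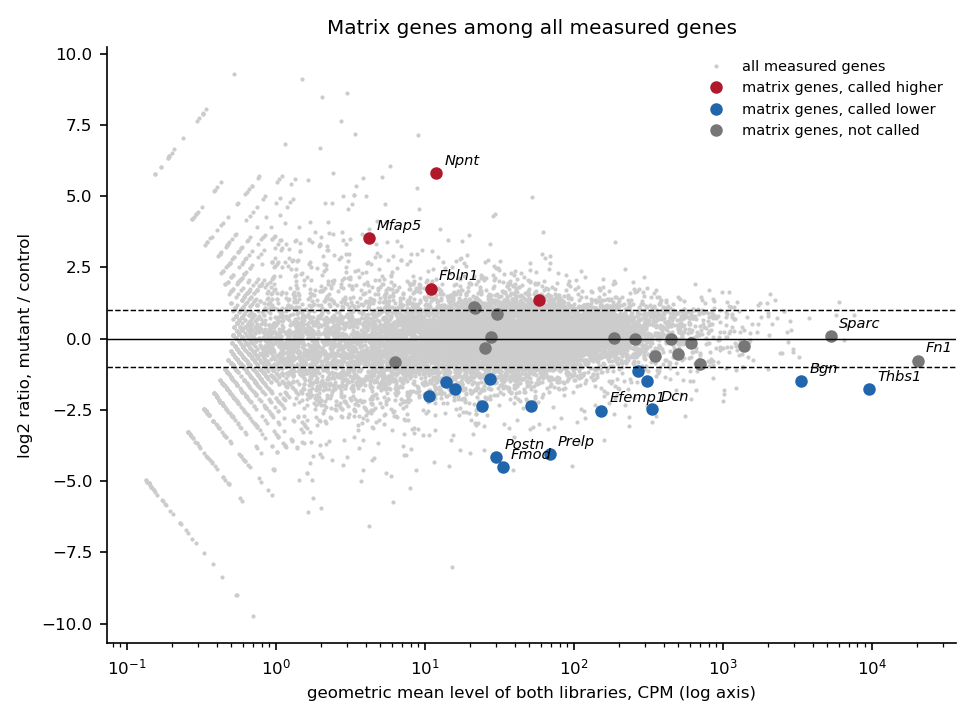
Log2 ratio of mutant to control library (vertical axis) is plotted against the geometric mean level of both libraries in CPM (horizontal log axis), in grey dots for all 13142 measured genes and in larger points for the 35 measured matrix genes; dashed lines mark 2-fold. Fn1 lies farthest right, Fmod, Postn and Prelp lie lowest among the matrix genes and Npnt highest.

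Other matrix glycoproteins and proteoglycans, a list of 47 genes that are not among the 40, had 30 measured genes, of which 5 were called lower and 3 higher (median log2 ratio -0.03), beside 8.29% lower and 6.98% higher over all measured genes. The 3 lowest by their interval bound were Svep1, which encodes a large adhesion protein, with 46205 and 8952 counts (3.88-fold lower, 3.79 to 3.97), the SPARC-related gene Smoc2 with 1390 and 265 (3.94-fold, 3.46 to 4.51), and the CCN family gene Ccn5 with 43704 and 9350 (3.51-fold, 3.44 to 3.59). The 3 called higher were Mfap3l (19 and 161 counts, 11.3-fold, 6.99 to 19.2), Cilp2 (9 and 43, 6.36-fold, 3.06 to 14.8) and the CCN family gene Ccn4 (1171 and 1945, 2.21-fold, 2.05 to 2.38). Cilp2, a relative of Cilp, thus had the opposite call to it. Mfap3l and Mfap1a of this list bear a microfibril name, but whether their proteins belong to the matrix was not checked.

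Enzymes that build glycosaminoglycan chains on proteoglycan cores had 3 of 21 measured genes called lower and 0 higher (median log2 ratio -0.14), a share called that is near the 15.3% of all measured genes. Csgalnact1, whose enzyme starts chondroitin sulphate chains, had 2521 and 213 counts, 8.9-fold lower (7.73 to 10.3). Xylt1 encodes a xylosyltransferase that attaches the first sugar to the core protein. It had 445 and 47 counts, 7.12-fold lower (5.26 to 9.83). Chsy3, a chondroitin polymerising enzyme gene, had 353 and 58 counts, 4.58-fold lower (3.46 to 6.15). Their relatives Csgalnact2 (1350 and 838 counts), Xylt2 (947 and 457) and Chsy1 (905 and 717) were not called.

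Integrin chains that bind the RGD sequence of fibronectin and related ligands had 2 of 7 measured called higher and 1 lower. Among all measured genes, 6.98% were called higher and 8.29% lower. Itga5, the α chain of the main fibronectin receptor, had 5032 and 10486 counts and was 2.77-fold higher (2.68 to 2.87), while Fn1 itself was lower. Itgb6 (30 and 115 counts) was 5.10-fold higher (3.39 to 7.90) and Itgb8 (390 and 65) 4.51-fold lower (3.46 to 5.96). Itgb1, the partner of Itga5, had 45137 and 37341 counts and was not called.

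Some markers of other cells differed between the same libraries, in which 6.98% of all measured genes were called higher and 8.29% lower. The summed level of 15 monocyte and macrophage markers was 14.7 CPM for the control against 61.7 CPM for the mutant library, with 8 of the 15 at 0 in the control and 1 at 0 in the mutant library, and 8 of 11 measured called higher. Ctss (0 and 34 counts), C1qa (0 and 24), Tyrobp (0 and 20) and Itgam (0 and 30) were measured only through their mutant counts. A call of these genes could thus only be higher. Csf1r (149 and 229), Cd68 (40 and 79) and Fcer1g (12 and 27) were not called. Megakaryocyte and platelet markers summed to 16.9 and 13.4 CPM, mostly from Gp1bb (185 and 104 counts) and Itga2b (150 and 122), with Gp9, Gp6 and Treml1 at 0 in both. Of 3 measured, 1 was called lower and 0 higher. It was Gp1ba, with 57 and 5 counts (8.57-fold lower, 3.47 to 27.4). Endothelial markers summed to 0.865 and 1.61 CPM, and erythroid markers to 0.432 and 0.23 CPM. Smooth muscle and pericyte markers summed to 1491 and 2964 CPM, mostly from Acta2 (21444 and 26086 counts) and Tagln (7802 and 21867), but of 6 measured 2 were called higher and 2 lower. The sums of osteoblast markers were 23.0 and 34.3 CPM, mostly from Runx2 (442 and 560 counts), and 0 of 3 measured were called. Those of keratinocyte markers were 18.2 and 5.87 CPM, from Trp63 (315 and 16 counts) and Krt10 (105 and 79). Krt1, Krt5, Krt14 and Ivl had 3 counts or fewer in each library. The part of these cells in the ratios of the matrix genes was not tested.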

How the data were processed

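RNA sequencing was done on sorted bone marrow MSPC, with 1 library per genotype. The authors deposited raw counts per Ensembl gene, which are whole numbers with no normalization. Per the submitters' processing notes, CASAVA, TopHat, edgeR and the build mm9 were used, with no version stated. The sources used here do not give the counter, annotation or strand setting, so overlapping genes may share reads. A symbol was found for 34490 of 35275 identifiers. TMM factors (edgeR 4.0.16, R 4.3.3) were 1.0358 (control) and 0.9654 (mutant). Intervals came from the split of a gene's counts, in SciPy 1.17.1, and log2 ratios used a prior count of 0.5 per library. The interval rule was tested on simulated data that held counting noise only, so spread between animals or sorts was not covered. Transcript lengths, GC content and exon overlaps came from GENCODE M21, which is on another build than mm9. Coordinates are given for promoter windows alone, on the RefSeq build GRCm38.p6. Alternatives were other scalings (DESeq2 1.42.0 size factors, total counts, upper-quartile factors, totals without the 50 most abundant genes, TMM without the matrix genes), length and GC trends removed by loess, other minimum counts, thresholds and prior counts, and a 99% interval.

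The 40 genes, the role groups, the related lists and the markers were chosen with earlier results of these data known. Measured matrix genes are named with their counts, called ones also with fold and interval. Of each related list, up to 3 called genes per direction were named by interval bound. The relatives named beside them and beside the small leucine-rich proteoglycans were chosen after values were seen. So were Itgb1, Itga8, Tgfb2 and Tgfb3, the flanking genes, TATAAA and the GC content of promoter windows. The planned protein features were not analysed here. No sample column was left unused. Some items are not reported here.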

Additional observations from a re-analysis of the deposited data

How the results depend on the processing

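The counts of 15 lower and 4 higher were the same under all 5 other scalings, with other count minimums or none, and with a 99% interval, and they were 13 and 4 with the length and GC trends removed. With a 1.5-fold threshold 7 matrix genes were higher (17 lower), and with a 4-fold threshold 2 were higher and 7 lower. Over all genes the 1.5-fold threshold gave 2063 higher and 2046 lower, and the 4-fold threshold 223 and 265. The median log2 ratio of the matrix genes was -0.87 with total counts, -0.80 with upper-quartile factors and -0.90 without the 50 most abundant genes in the totals. The first and last of these moved the median of all genes to -0.1 and -0.12, and since a scaling shifts all genes alike, the matrix median minus that of all genes is -0.78 under each of them by construction. With the trends removed it was -0.70. Without Fn1 the matrix genes held 3.79% of the control and 1.7% of the mutant counts. Over single genes, 298 of the values recomputed stayed as they were, called or not called. A call was lost in 12 and gained in 5, and none was reversed among called genes. The gains all came with the 1.5-fold threshold. The losses came with the 4-fold threshold, and for Fbn2 and Aspn also with the trends removed. A changed threshold leaves the ratio as it is, so it cannot reverse a direction. No paired analysis was possible because each genotype has 1 library, and for the same reason no replicate could be left out. Genes with few counts, such as Mfap5 in the control, have the widest intervals.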

Other observations

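Col2a1, the collagen gene of cartilage, had 33442 and 18827 counts although Acan, the aggrecan gene, had 1 in each library, and Col2a1 was not called (1.34-fold lower, 1.31 to 1.36). Of 5 measured chondrocyte markers, 3 were called lower and 1 higher, beside 8.29% and 6.98% of all measured genes. Sox9, the cartilage regulator gene, had 2568 and 725 counts (2.66-fold lower, 2.45 to 2.90), Cnmd 99 and 2 (a ratio of 0.0269, 0.00321 to 0.0997) and Col11a2 149 and 37 (3.03-fold lower, 2.10 to 4.47). Hapln1, which links aggrecan to hyaluronan, had 25 and 150 (7.98-fold higher, 5.20 to 12.7). Of the tendon regulators, Scx had 150 and 804 counts (7.13-fold higher, 5.98 to 8.55) and Mkx had 63 and 221 (4.67-fold higher, 3.51 to 6.28), in the library in which the tendon matrix genes Fmod and Comp were lower. Tnmd, the tendon gene of tenomodulin, had 2 and 0 counts. Egr2, the other measured tendon marker, had 72 and 90 counts and was not called (a ratio of 1.66, 1.21 to 2.30). Of 3 measured tendon markers 2 were thus called higher, beside 6.98% of all measured genes. The contractile genes Tagln (7802 and 21867 counts, 3.73-fold higher, 3.63 to 3.83) and Cnn1 (636 and 1196, 2.50-fold higher, 2.27 to 2.76) were called higher, while the pericyte genes Rgs5 (34 and 1, a ratio of 0.0391, 0.000963 to 0.233) and Notch3 (64 and 13, 3.70-fold lower, 2.02 to 7.33) were called lower. These genes were chosen after their values were seen.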
